A study of Gallus gallus with 15 samples.

Results

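Complex I of the respiratory chain, NADH:ubiquinone oxidoreductase, was examined through every gene of the deposited table whose symbol begins with NDUF, which gave 43 genes of 17475. Of these, 35 carry the name of a subunit (NDUFA, NDUFB, NDUFC, NDUFS or NDUFV) and 8 the name of an assembly factor (NDUFAF). RNA was sequenced from the breast muscle of 15 female Korat chickens (KRC, a slow-growing cross of Thai indigenous males with a breeder line) at 10 weeks of age, with 1 library per bird and 1 bird from each of 5 cages per diet. The 5 birds of group B were fed the basal diet with 1% β-alanine, the 5 birds of group C the same diet with 0.5% L-histidine, and the 5 birds of group A, the controls, the diet with neither. Carnosine, a dipeptide of muscle, is made of these amino acids, and the study asked which genes differ with the supplements, which were given to raise carnosine. The numbers of the birds are the replicate numbers of the labels. The total count was 10620229 to 15381547 fragments per bird.

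Complex I takes electrons from NADH in the mitochondrial matrix, passes them along a flavin and a chain of iron-sulfur clusters to ubiquinone, and uses the energy to pump protons across the inner membrane. It is L-shaped, with a matrix arm that carries the electrons and a membrane arm that holds the pumps. The core subunits do this work, and a larger number of accessory subunits surround them. The core subunits of the membrane arm are encoded in mitochondrial DNA, and the deposited table has no row for them, so the core is represented here by the nuclear genes of the matrix arm. Assembly factors build the complex and are not part of the finished enzyme. The chicken breast is a white muscle made almost wholly of fast fibres, which hold few mitochondria.

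Of the 43 genes, 42 had a mean deposited FPKM (counted fragments set against exonic length and library total) of at least 0.2 and were tested, and the other, NDUFA11, an accessory subunit of the membrane arm, had 0 counts in every bird. The whole span of NDUFA11 (889629 to 892458 on GRCg6a, chromosome 28) lies within that of KLHL33 on the same strand, and whether fragments that fit both genes were left uncounted was not tested, so this 0 is no measure of the RNA. By role, the genes tested were 7 core subunits, 10 accessory subunits of the matrix arm, 16 of the membrane arm, 8 assembly factors and NDUFA4, which was first described with complex I and is now counted with cytochrome c oxidase. Spans of 12 of the 43 genes overlap another gene, and the sources used here do not say whether strand was used in counting. Fragments of NDUFB2, which lies across BRAF for 9330 bases and has an exonic length of 9160 bases, and of NDUFAF7, which shares 2701 bases with PRKD3, may therefore be shared with the other gene.

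Levels are given as normalized FPKM, the count divided by the exonic length in kilobases and by the library size after scaling by relative log expression. The 34 subunit genes tested had a median of 93.5 normalized FPKM over the 15 birds, against 4.03 over all 11858 genes tested, and 15 of them averaged over 100. NDUFB10, an accessory subunit at the intermembrane face of the membrane arm, was the highest with a mean of 383 (span 6537194 to 6538867, chromosome 14), followed by NDUFB4. The 8 assembly factors had a median of 13.3 normalized FPKM, and their highest, NDUFAF1, averaged 42.2. NDUFAF4 was the lowest of all with 1.20, from counts of 45 to 184 per bird over an exonic length of 6305 bases. The core subunits lay between 63.9 and 242 normalized FPKM, with NDUFS7 at the top.

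**Figure D1:**
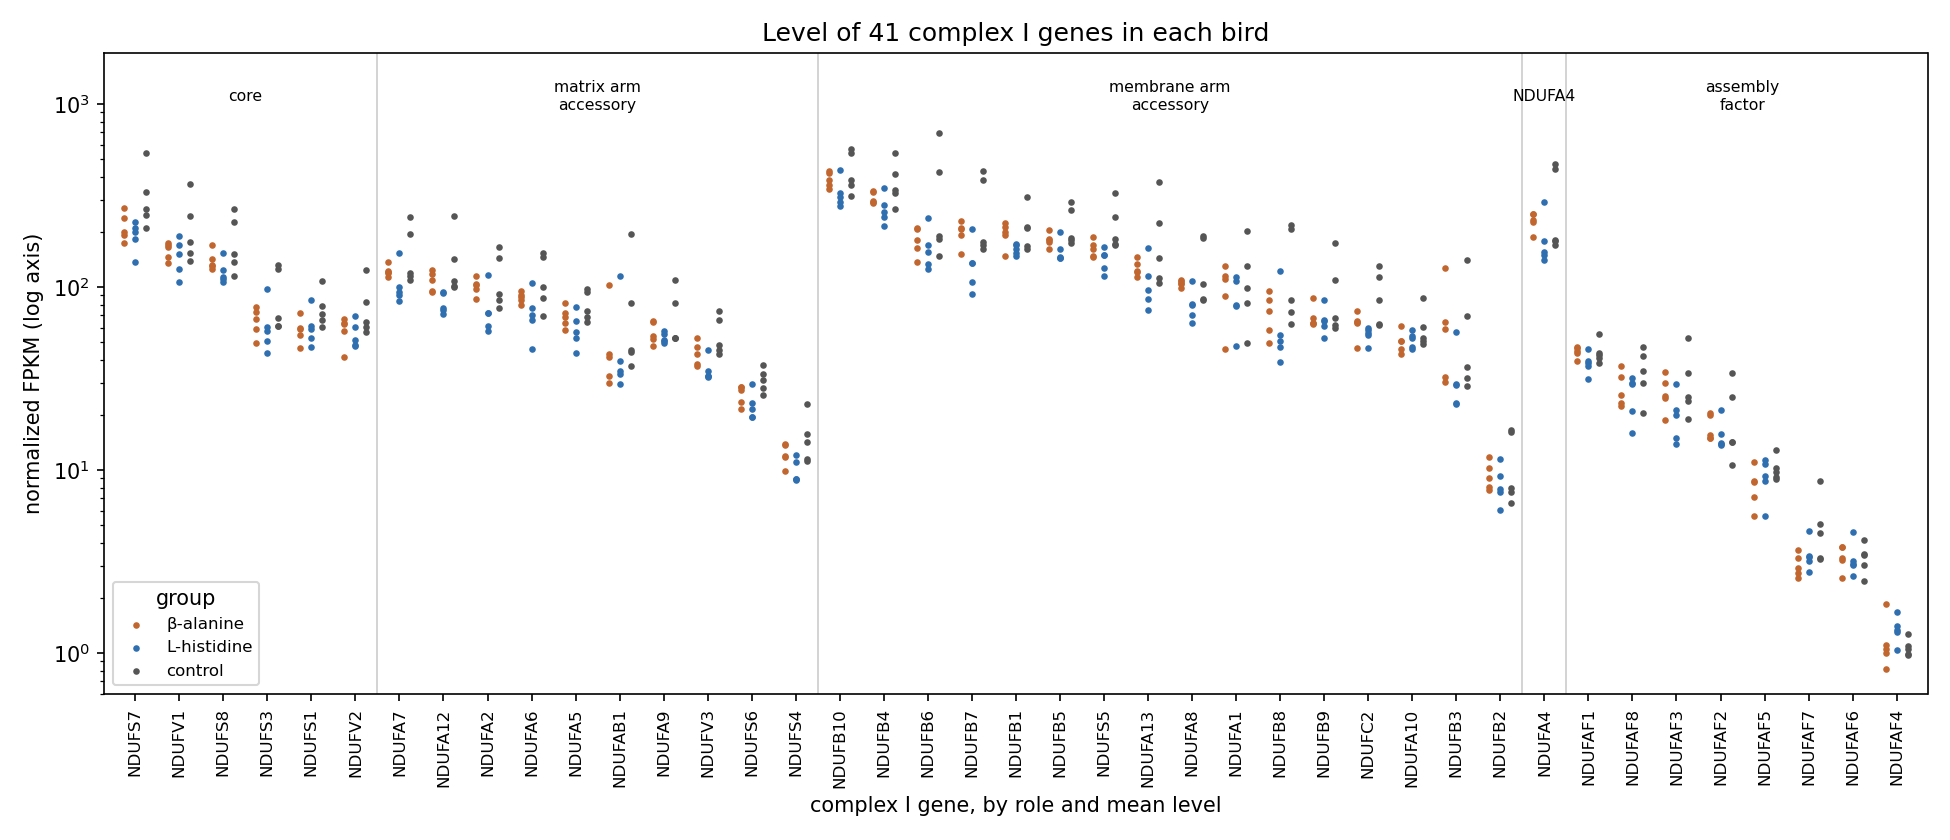
Normalized FPKM (log axis) of 41 of the 42 complex I genes tested, 1 point per bird, with β-alanine birds left, L-histidine birds in the middle and control birds right in each gene. The subunit genes lie mostly between 10 and 383, the assembly factors lower, down to 1.20 on average for NDUFAF4, and in most genes 2 control birds stand above all others.

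Libraries differed within the control group before any comparison is read. Control bird 4 held the highest value of 33 of the 42 genes and control bird 3 of 7, so that these 2 birds held the highest value of all but 2 genes. The subunit genes deviated from their means over all birds by −0.12 to 0.12 on the log2 scale in the β-alanine birds, by −0.43 to 0.14 in the L-histidine birds, by −0.13, −0.05 and −0.06 in control birds 1, 2 and 5, and by 0.96 and 0.67 in control birds 4 and 3. These 2 libraries also had the lowest scaling factors (0.678 and 0.856, the other birds 0.933 to 1.19), and control bird 4 had the lowest depth and the largest share of counts in its 10 most abundant genes (40.7%). In the paper's read statistics, the same 2 libraries had the lowest mapping rates and the highest GC content of all birds. In both, shorter genes were high, with a slope of log2 level on log2 exonic length of −0.27 in each, against −0.09 to 0.14 in the other birds. The members are short genes, with a median exonic length of 906 bases against 3110 bases over all genes tested. What part these features of the 2 libraries have in the results was not tested. Values without these birds are given with both comparisons against control. Because these are the birds highest in most members, leaving them out raises most of the fold changes by itself. Those values describe how far the averages rest on 2 birds and are no test of the diets. As a share of all counts, without any scaling, the members made up 0.507% and 0.515% in control birds 4 and 3, and 0.322% to 0.435% in the other 13.

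Taken over all 15 birds, most members moved together from bird to bird. After each gene's group mean was taken off, the correlation between 2 members over the 15 birds had a median of 0.69 over 861 pairs, and it was positive in 816 pairs. This is a description over birds that share a library and a scaling factor for all members. NDUFA7, NDUFB7, NDUFB9 and NDUFB5 followed the mean of the other members most closely (r 0.96 each). NDUFAF6 (r −0.18), NDUFAF4 (0.13), NDUFA1 (0.25), NDUFAF5 (0.28) and NDUFB3 (0.32) followed it least.

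**Figure D2:**
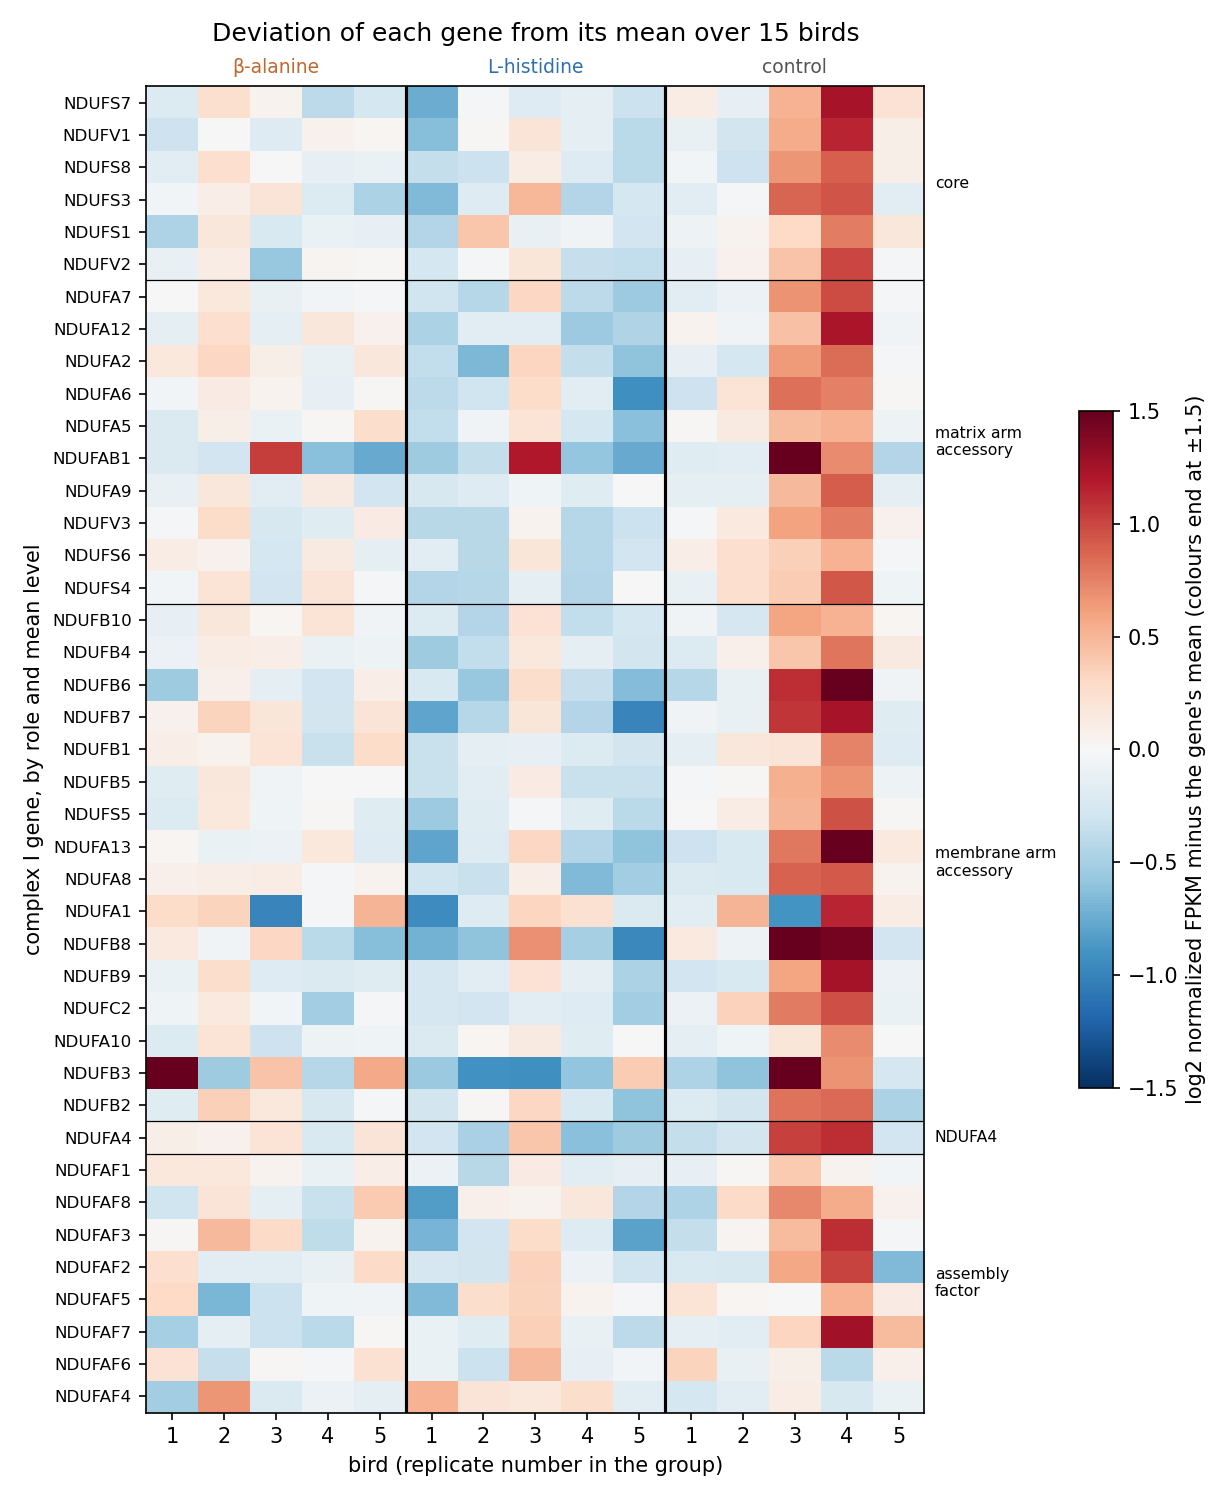
Deviation of each of 41 members (rows, by role) in each bird (columns, β-alanine, L-histidine and control birds 1 to 5) from the gene's mean over 15 birds, as log2 normalized FPKM. Control birds 3 and 4 are high in nearly every row, L-histidine birds 1, 4 and 5 are low in most, and NDUFAB1, NDUFB3 and NDUFA1 have patterns of their own.

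For β-alanine against control, 38 of the 42 members were lower on average in the β-alanine birds, but none passed. Of all 11858 genes, 0% passed an adjusted p of 0.05 with edgeR's quasi-likelihood test and Benjamini-Hochberg adjustment, and the members gave 0 of 42, with 7 at an unadjusted p under 0.05. These 7 (16.7% of the members) were all lower with β-alanine, against 6.17% of all genes that were lower at that limit, and 0 members were higher, against 4.47% of all genes. The median log2 fold change was −0.35 for the 34 subunit genes and −0.19 for the 8 assembly factors, against −0.02 for all genes. Without control bird 4 alone, 1 member was lower at that limit, against 3.15% of all genes. Without control birds 3 and 4, 0 members were lower at that limit, against 3.13% of all genes, and 1 (NDUFB3) was higher. The share of all genes higher in that fit was not counted. In that fit 17 of the 42 members were lower on average and the subunit median was 0.042. In 0 members did every β-alanine bird lie below every control bird, against 0.869% of all genes. DESeq2, another count model, called 0 members, against 0.286% of the genes it tested that were called and lower.

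For L-histidine against control, 41 of the 42 members were lower on average in the L-histidine birds, all except NDUFAF4. None passed the adjusted limit in edgeR (0 of 42, all genes 0%), and 27 members (64.3%) had an unadjusted p under 0.05, all lower, against 11.2% of all genes lower at that limit. No member was higher at that limit (0 of 42), against 7.99% of all genes. The median log2 fold change was −0.58 for the subunit genes and −0.25 for the assembly factors, against 0.01 for all genes. The count of 27 became 10 without control bird 4 (5.37% of all genes), 14 without control bird 3 (7.72%), and 2 without both (2.71%), where the subunit median was −0.16 and 33 of the 42 members were lower on average. Every L-histidine bird lay below every control bird in 3 members (NDUFA12, NDUFC2 and NDUFS5), against 1.05% of all genes. DESeq2 called 3 members lower (NDUFV3, adjusted p 0.0389, NDUFC2, 0.0449, and NDUFA12, 0.0478), against 1.31% of the genes it tested that were called and lower. Both comparisons use the same 5 control birds, so they are not separate evidence of a lower level.

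For L-histidine against β-alanine, 36 of the 42 members were lower on average with L-histidine. The control birds are not compared here, but they entered the fit with its scaling and its estimate of the spread. edgeR called 0 members (all genes 0%), and none had an unadjusted p under 0.05, against 1.51% of all genes that were lower and 2.51% that were higher. When only these 2 groups were fitted, 5 members were lower at that limit and 0 higher, against 2.56% of all genes lower, and 0 members passed the adjusted limit. The median log2 fold change was −0.20 for the subunit genes and −0.08 for the assembly factors, against 0.01 for all genes. NDUFA12 alone had every L-histidine bird below every β-alanine bird, against 0.278% of all genes, and DESeq2 called 0 members (0% of its genes).

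**Figure D3:**
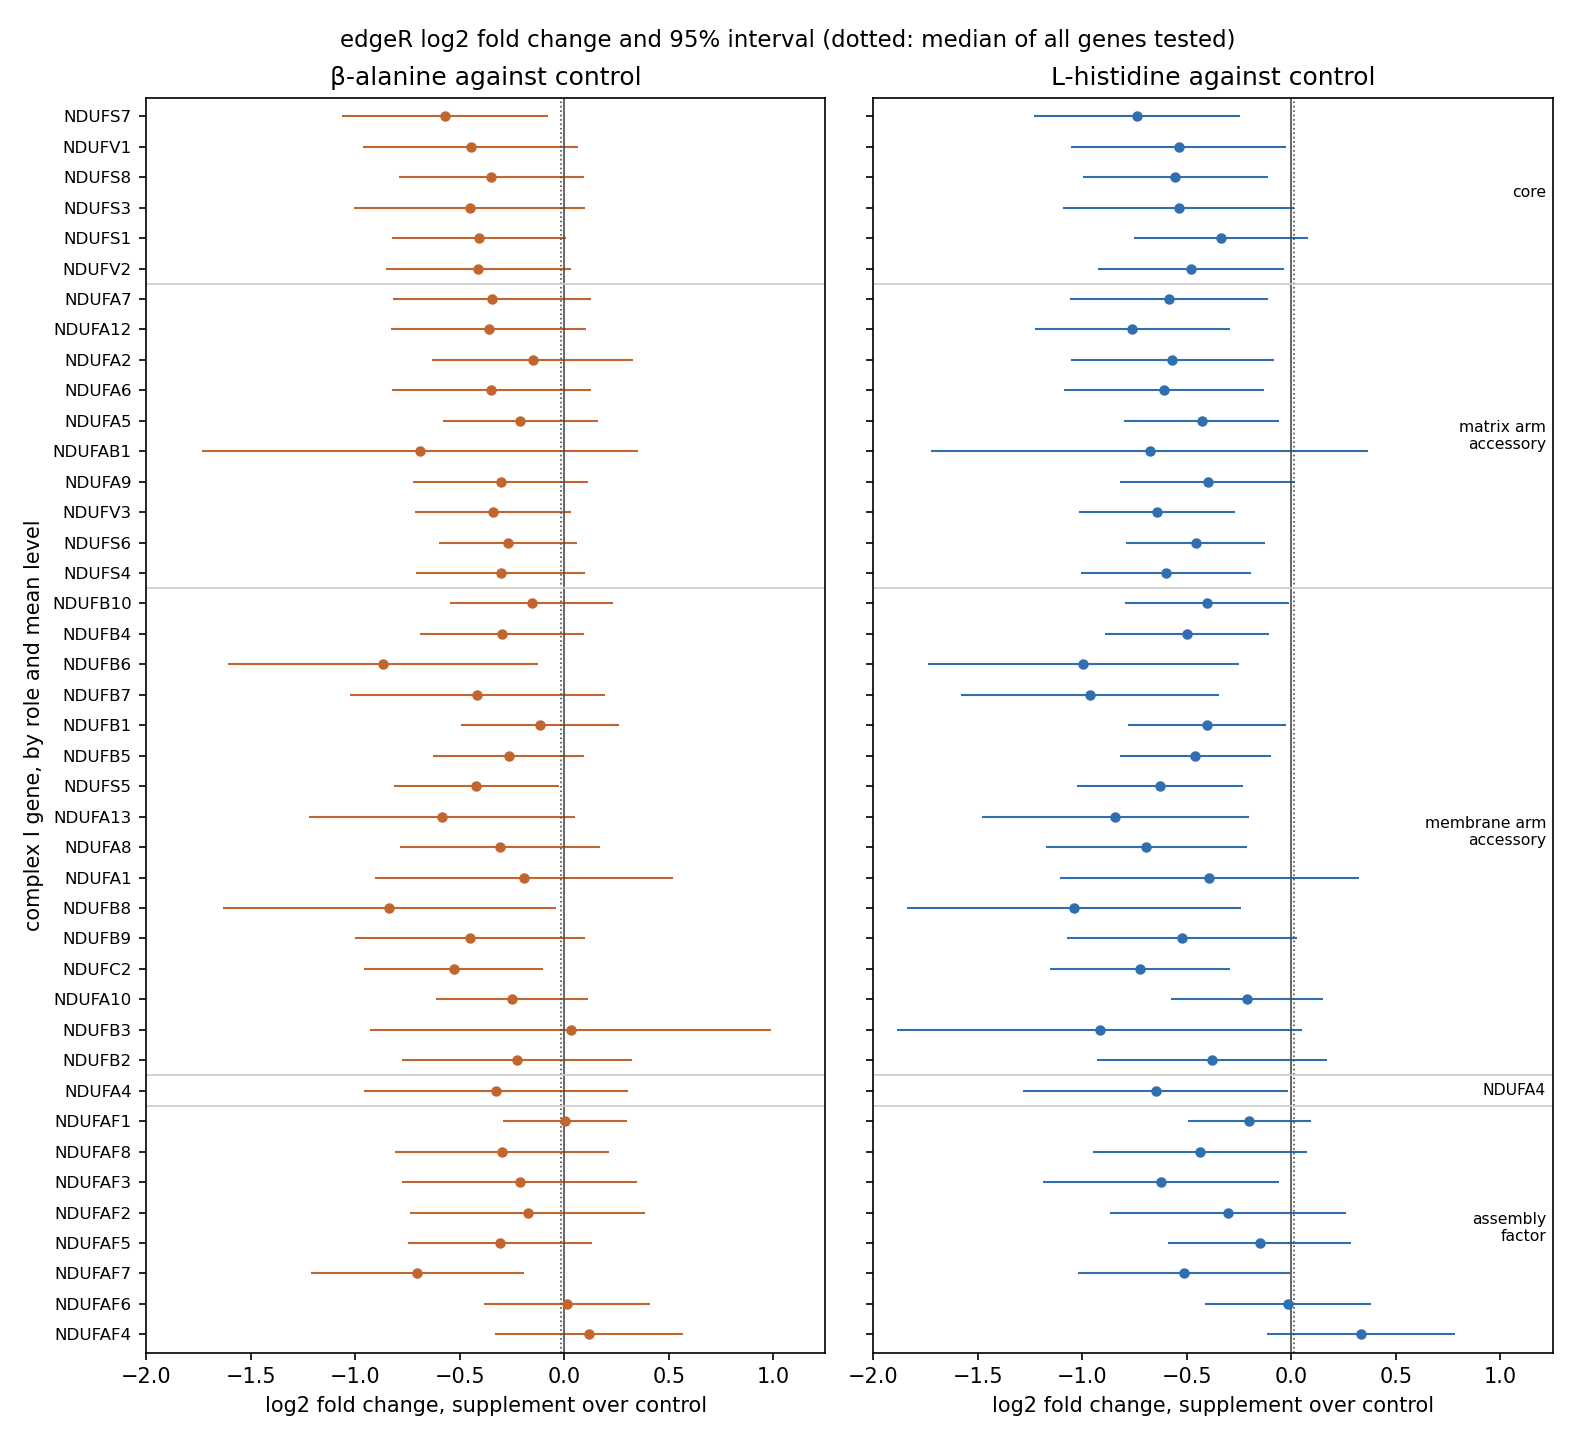
edgeR log2 fold change of 41 members, each with its 95% interval, β-alanine over control (left) and L-histidine over control (right), members by role and mean level. Nearly all points lie left of 0 and of the median of all genes (dotted, −0.02 and 0.01), and the intervals of most members in the left panel cross 0.

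Among the core subunits are those that carry the flavin and the iron-sulfur clusters. All 7 core subunits were lower on average in both supplemented groups, with median log2 fold changes of −0.45 (β-alanine) and −0.54 (L-histidine). NDUFS7 holds the last iron-sulfur cluster before ubiquinone. It had 199, 272, 238, 175 and 192 normalized FPKM in β-alanine birds 1 to 5, 137, 226, 201, 209 and 183 in L-histidine birds 1 to 5, and 247, 211, 329.6, 541 and 268 in control birds 1 to 5. Only L-histidine bird 2 lay above the lowest control bird, whereas the β-alanine and control birds overlapped. The log2 fold change of NDUFS7 was −0.57 ± 0.23 (± SE, as for all fold changes) with β-alanine and −0.74 ± 0.23 with L-histidine (adjusted p 0.441 and 0.170 with edgeR's quasi-likelihood test). Without control birds 3 and 4 it was −0.17 and −0.34.

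NDUFV1, the subunit that binds NADH and the flavin, averaged 158 ± 17.3 normalized FPKM (mean ± SD of 5 birds, as for all such values) in the β-alanine birds, 149 ± 33.3 in the L-histidine birds and 216 ± 93.6 in the control birds. Its neighbour NDUFV2 averaged 58.4 ± 9.89, 55.6 ± 9.40 and 77.7 ± 27.5 in the same groups. Both were highest in control birds 4 and 3, which had 367 and 245 for NDUFV1.

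NDUFS1, the largest core subunit of the matrix arm, was highest among the supplemented birds in L-histidine bird 2, with 85.0 normalized FPKM, above control birds 1, 2, 3 and 5 (60.7 to 78.6). It averaged 58.1 ± 9.29 in the β-alanine birds, 61.0 ± 14.6 in the L-histidine birds and 77.1 ± 18.7 in the control birds. NDUFS3 averaged 65.5 ± 11.4, 61.7 ± 20.9 and 89.7 ± 36.2 in β-alanine, L-histidine and control birds. NDUFS8, which carries iron-sulfur clusters next to NDUFS7, averaged 140.3 ± 17.4, 122 ± 18.8 and 179 ± 63.8 in the same order. NDUFS7 had an unadjusted p under 0.05 in both comparisons, and NDUFS8, NDUFV1 and NDUFV2 had one with L-histidine, whereas NDUFS1 and NDUFS3 had one in neither.

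Among the accessory subunits of the matrix arm, all 10 were lower on average in both supplemented groups (medians −0.32 with β-alanine, −0.59 with L-histidine). With L-histidine 8 had an unadjusted p under 0.05, against 11.2% of all genes lower at that limit. With β-alanine 0 had one, against 6.17% of all genes. Between L-histidine and β-alanine, 0 of the 10 had one. NDUFV3 sits at the NADH end of the arm. It had 43.1, 52.8, 36.9, 38.2 and 47.2 normalized FPKM in β-alanine birds 1 to 5, 32.7, 32.5, 45.0, 32.4 and 34.7 in L-histidine birds 1 to 5, and 43.1, 48.3, 65.9, 74.2 and 45.4 in control birds 1 to 5. The L-histidine and control birds would not overlap but for L-histidine bird 3, which lay above control bird 1. Its log2 fold change was −0.64 ± 0.18 with L-histidine, the smallest p of the members (0.00214 unadjusted, 0.170 adjusted with edgeR), and −0.34 ± 0.18 with β-alanine (adjusted p 0.496 with edgeR). NDUFV3 was at −0.36 with L-histidine and −0.06 with β-alanine when control birds 3 and 4 were left out.

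NDUFA12 takes its place in the arm late in assembly. It had 95.4, 124, 94.3, 117 and 109.9 normalized FPKM in β-alanine birds 1 to 5, 75.4, 93.3, 93.5, 71.6 and 76.4 in L-histidine birds 1 to 5, and 108, 101, 141, 245 and 101 in control birds 1 to 5. The L-histidine birds were below all other birds of the study, by a narrow margin from the lowest β-alanine birds. The log2 fold changes of NDUFA12 were −0.36 ± 0.22 for β-alanine against control, −0.76 ± 0.22 for L-histidine against control and −0.40 ± 0.22 for L-histidine against β-alanine (adjusted p 0.544, 0.170 and 0.983 with edgeR). The differences from control were 0.07 with β-alanine and −0.33 with L-histidine once control birds 3 and 4 were left out.

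NDUFA2, a small subunit with a thioredoxin-like fold, had 103, 115, 98.0, 85.8 and 104 normalized FPKM in β-alanine birds 1 to 5, 71.9, 57.9, 116, 72.1 and 60.9 in L-histidine birds 1 to 5, and 85.2, 77.1, 144, 165 and 91.1 in control birds 1 to 5. L-histidine bird 3 lay above every β-alanine bird, and the other 4 L-histidine birds were below all birds of both other groups. Its log2 fold change was −0.15 ± 0.23 with β-alanine, −0.57 ± 0.23 with L-histidine, and −0.42 ± 0.23 for L-histidine against β-alanine (adjusted p 0.821, 0.207 and 0.983 with edgeR). With control birds 3 and 4 left out, NDUFA2 was at 0.26 with β-alanine and −0.15 with L-histidine.

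NDUFAB1, the mitochondrial acyl carrier protein, is found in complex I and also serves mitochondrial fatty acid synthesis. It had 43.1, 41.4, 103, 32.6 and 29.8 normalized FPKM in β-alanine birds 1 to 5, 34.7, 39.2, 115, 33.6 and 29.7 in L-histidine birds 1 to 5, and 44.4, 45.2, 195, 82.1 and 37.2 in control birds 1 to 5. Bird 3 was the highest in every group. The standard errors of its log2 fold changes were the largest of the members (−0.69 ± 0.50 with β-alanine and −0.68 ± 0.50 with L-histidine), and both were above 0 without control birds 3 and 4 (0.25 and 0.26).

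The 16 accessory subunits of the membrane arm had median log2 fold changes of −0.30 with β-alanine and −0.58 with L-histidine. An unadjusted p under 0.05 was found in 4 and 11 of them, all lower, against 6.17% and 11.2% of all genes lower at that limit. NDUFC2 is a small subunit that spans the membrane (gene at 194303592 to 194307063, chromosome 1). It had 63.7, 73.8, 64.8, 46.3 and 65.5 normalized FPKM in β-alanine birds 1 to 5, 56.0, 54.7, 59.5, 58.2 and 46.4 in L-histidine birds 1 to 5, and 62.6, 84.9, 114, 130.5 and 62.2 in control birds 1 to 5. All L-histidine birds were below all control birds, and the β-alanine birds overlapped the controls. The log2 fold change of NDUFC2 was −0.53 ± 0.20 with β-alanine (unadjusted p 0.0183, adjusted p 0.434 with edgeR) and −0.72 ± 0.20 with L-histidine (0.00245 and 0.170). These were −0.15 and −0.34 without control birds 3 and 4.

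NDUFS5, on the intermembrane face of the arm, had 147, 189, 162, 170.3 and 148 normalized FPKM in β-alanine birds 1 to 5, 116, 149, 166, 149 and 127 in L-histidine birds 1 to 5, and 169.9, 182, 241, 328 and 171 in control birds 1 to 5. The L-histidine birds did not overlap the controls, although L-histidine bird 3 came within a few units of control bird 1. Its log2 fold change was −0.42 ± 0.19 with β-alanine and −0.63 ± 0.19 with L-histidine (adjusted p 0.446 and 0.170 with edgeR), and −0.09 and −0.30 without control birds 3 and 4.

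NDUFB10, the highest member, had 345, 421, 383, 432.0 and 362 normalized FPKM in β-alanine birds 1 to 5, 326, 277, 434, 290.5 and 311 in L-histidine birds 1 to 5, and 363, 316, 565, 537 and 385 in control birds 1 to 5. All 3 groups overlapped. Its log2 fold changes were −0.16 ± 0.19 with β-alanine and −0.40 ± 0.19 with L-histidine (adjusted p 0.767 and 0.253 with edgeR), and 0.14 and −0.11 without control birds 3 and 4.

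The lowest log2 fold changes with L-histidine were those of NDUFB8, NDUFB6 and NDUFB7, of the far part of the membrane arm. NDUFB6 had 136, 208, 181, 163 and 211 normalized FPKM in β-alanine birds 1 to 5, 169, 133, 238, 156 and 126 in L-histidine birds 1 to 5, and 148, 183, 426, 694 and 190.4 in control birds 1 to 5. Controls 1, 2 and 5 lay among the supplemented birds, and controls 3 and 4 well above all of them. The log2 fold changes of −0.87 ± 0.35 with β-alanine and −0.995 ± 0.35 with L-histidine (adjusted p 0.441 and 0.183 with edgeR) became 0.06 and −0.07 when control birds 3 and 4 were left out. NDUFB8 had the lowest log2 fold change with L-histidine, −1.04 ± 0.38, and −0.22 without these 2 birds.

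NDUFB7 had 191, 229.8, 208, 151 and 210.0 normalized FPKM in β-alanine birds 1 to 5, 106, 136, 208, 135 and 91.8 in L-histidine birds 1 to 5, and 177, 169.7, 384, 429.5 and 161 in control birds 1 to 5. Apart from bird 3, the L-histidine birds were below every bird of the other groups. Its log2 fold change was −0.42 ± 0.29 with β-alanine, −0.96 ± 0.29 with L-histidine and −0.55 ± 0.29 for L-histidine against β-alanine (adjusted p 0.595, 0.170 and 0.983 with edgeR), and without control birds 3 and 4 it was 0.23 with β-alanine and −0.32 with L-histidine.

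NDUFB3 and NDUFA1, both of the membrane arm, varied from bird to bird apart from the other members. NDUFB3 had 127, 30.3, 59.0, 32.4 and 64.6 normalized FPKM in β-alanine birds 1 to 5, 29.6, 23.3, 23.1, 29.1 and 57.0 in L-histidine birds 1 to 5, and 31.7, 28.8, 140.0, 69.5 and 36.7 in control birds 1 to 5. Birds with 23.1 to 36.7 and birds with 57.0 to 140.0 were present in every group, with none between. The lower average with L-histidine (−0.92 ± 0.46 against control, −0.95 ± 0.46 against β-alanine, adjusted p 0.283 and 0.983 with edgeR) goes with 1 bird of the higher kind in that group, against 3 with β-alanine and 2 in the controls, which are control birds 3 and 4. Without them NDUFB3 was at 0.96 with β-alanine and 0.0055 with L-histidine against control. NDUFA1 was low in β-alanine bird 3, L-histidine bird 1 and control bird 3 (46.2, 47.3 and 49.3), and 78.7 to 202 in all others, so that control bird 3, high for most members, was the lowest control bird here.

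NDUFA4, a cytochrome c oxidase subunit by present usage, followed the complex I genes. It had 187 to 251 normalized FPKM in the β-alanine birds, 178, 156, 292, 141 and 151 in L-histidine birds 1 to 5, and 170.4, 180.0, 443, 469 and 179 in control birds 1 to 5. All 5 β-alanine birds were above controls 1, 2 and 5 and below controls 3 and 4. Its log2 fold change was −0.33 ± 0.30 with β-alanine and −0.65 ± 0.30 with L-histidine (adjusted p 0.692 and 0.252 with edgeR), and 0.38 and 0.06 without control birds 3 and 4.

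**Figure D4:**
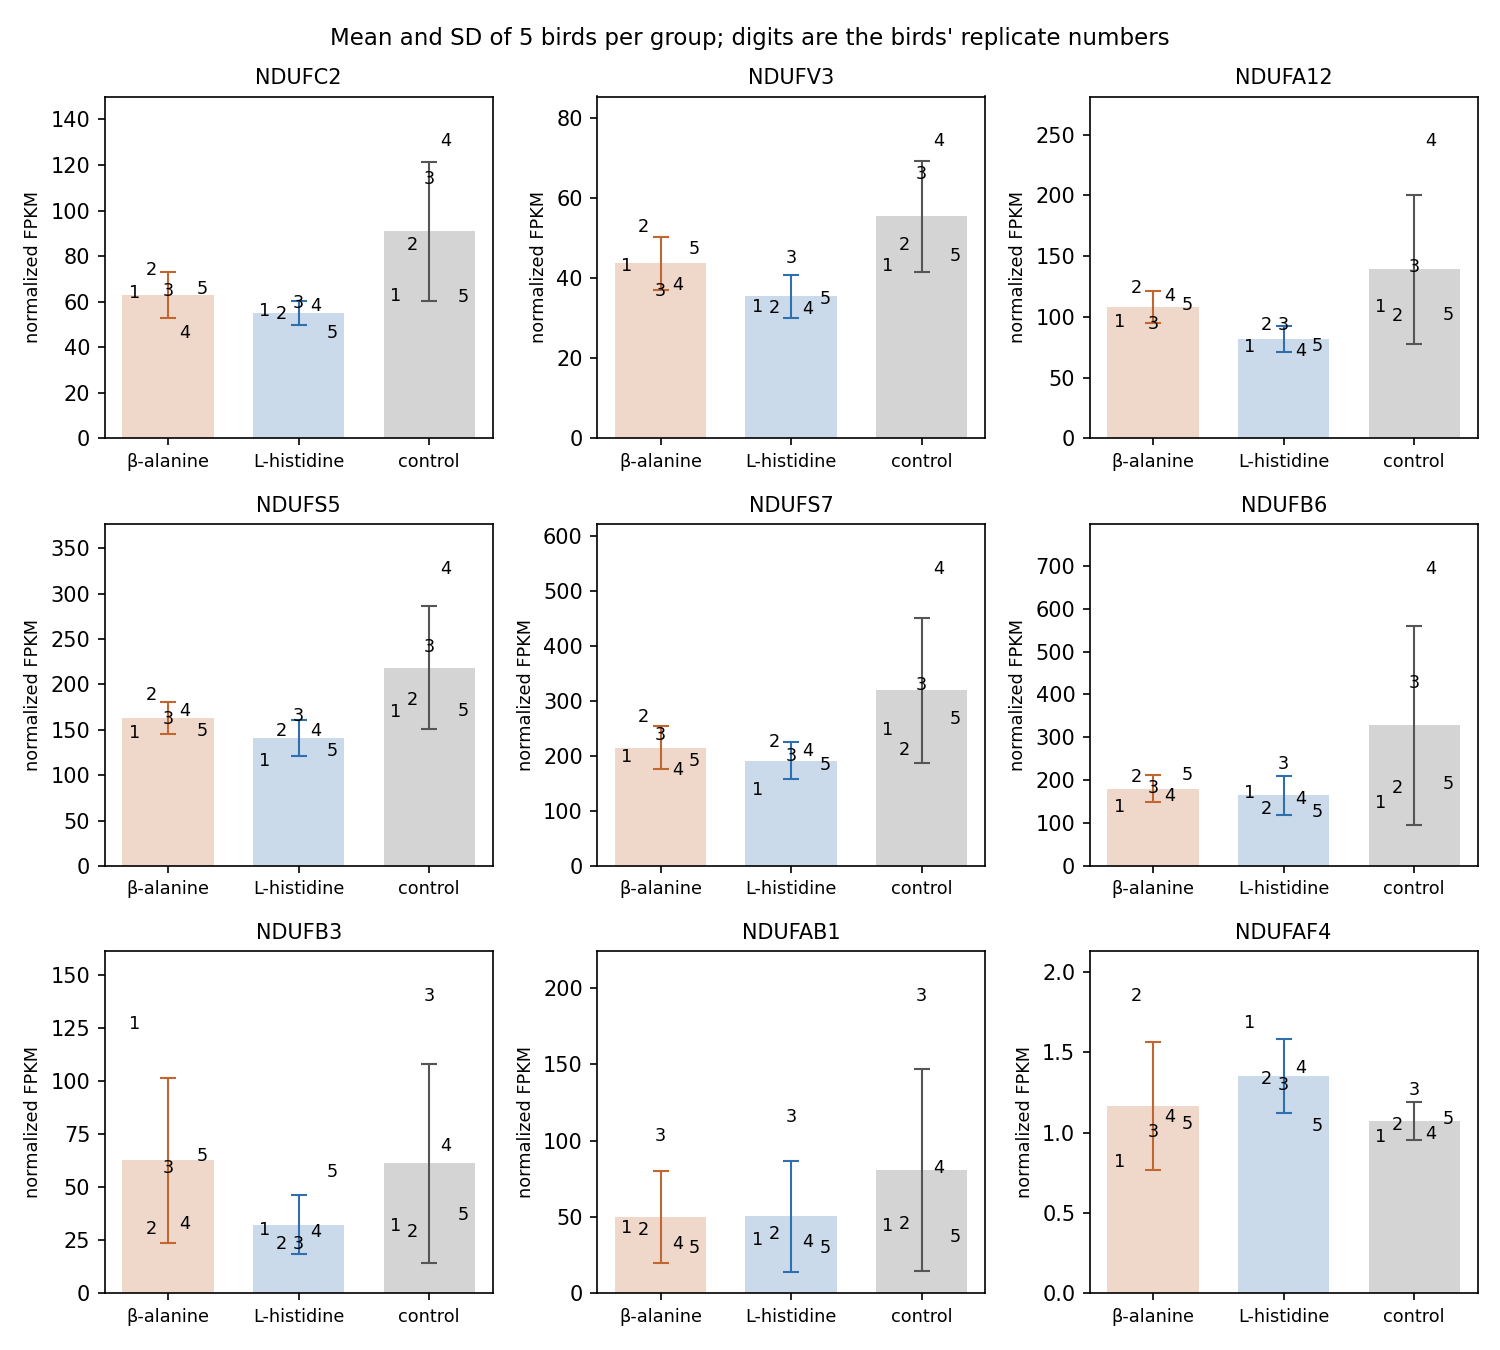
Normalized FPKM of 9 members in β-alanine (left), L-histidine (middle) and control (right) birds, with bars for the mean, error bars for the SD of 5 birds and each bird drawn as its replicate number. L-histidine birds do not overlap the controls in NDUFC2, NDUFA12 and NDUFS5, control birds 3 and 4 stand above the others in NDUFB6, and bird 3 is the highest of each group in NDUFAB1.

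Of the assembly factors, 1 of 8 was lower at an unadjusted p under 0.05 with β-alanine (NDUFAF7) and 2 of 8 with L-histidine (NDUFAF3 and NDUFAF7), where 6.17% and 11.2% of all genes were lower at that limit. NDUFAF7, which in human cells methylates a core subunit early in assembly, had the smallest p of the members with β-alanine. It had 2.57, 3.31, 2.90, 2.74 and 3.68 normalized FPKM in β-alanine birds 1 to 5, 3.39, 3.20, 4.64, 3.36 and 2.76 in L-histidine birds 1 to 5, and 3.31, 3.25, 4.54, 8.69 and 5.05 in control birds 1 to 5. The groups overlapped, and control bird 4 was far above the rest. The log2 fold change of NDUFAF7 was −0.70 ± 0.24 with β-alanine (unadjusted p 0.00967, adjusted p 0.424 with edgeR) and −0.51 ± 0.24 with L-histidine (adjusted p 0.258 with edgeR), and −0.34 and −0.15 without control birds 3 and 4.

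NDUFAF4, which works with NDUFAF3 on the ubiquinone-binding part of the matrix arm, was the only member above the controls on average with L-histidine. It had 0.817, 1.85, 1.0, 1.10 and 1.06 normalized FPKM in β-alanine birds 1 to 5, 1.68, 1.34, 1.30, 1.40 and 1.04 in L-histidine birds 1 to 5, and 0.972, 1.05, 1.27, 0.991 and 1.09 in control birds 1 to 5. Apart from bird 5, the L-histidine birds were above every control bird. The log2 fold change was 0.33 ± 0.21 (adjusted p 0.388 with edgeR), and the counts behind it are the fewest of any member. NDUFAF1, a factor of membrane arm assembly, was at 44.2 ± 3.08, 38.4 ± 5.16 and 44.1 ± 6.47 normalized FPKM in β-alanine, L-histidine and control birds, with the log2 fold change nearest 0 with β-alanine.

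Without control birds 3 and 4, which are highest in most members, the members were no longer mostly lower with β-alanine, as given above. For L-histidine, the 2 members at an unadjusted p under 0.05 without these birds were NDUFV3 and NDUFA12. Leaving out control bird 4 alone gave subunit medians of −0.15 with β-alanine and −0.39 with L-histidine, and leaving out control bird 3 alone gave −0.26 and −0.46, with 2 members lower at an unadjusted p under 0.05 with β-alanine, against 4.33% of all genes. Leaving out control bird 1, 2 or 5 gave 9 to 15 such members with β-alanine, against 7.09% to 9.05% of all genes, and 30 to 32 with L-histidine, against 12.4% to 13.9%. When the trend of each library with gene length was removed, the subunit medians were −0.21 with β-alanine and −0.29 with L-histidine. The assembly factor medians were then −0.014 and −0.0065, close to those of all genes (−0.013 and 0.0064). There were 5 and 12 such members, against 6.26% and 9.48% of all genes.

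**Figure D5:**
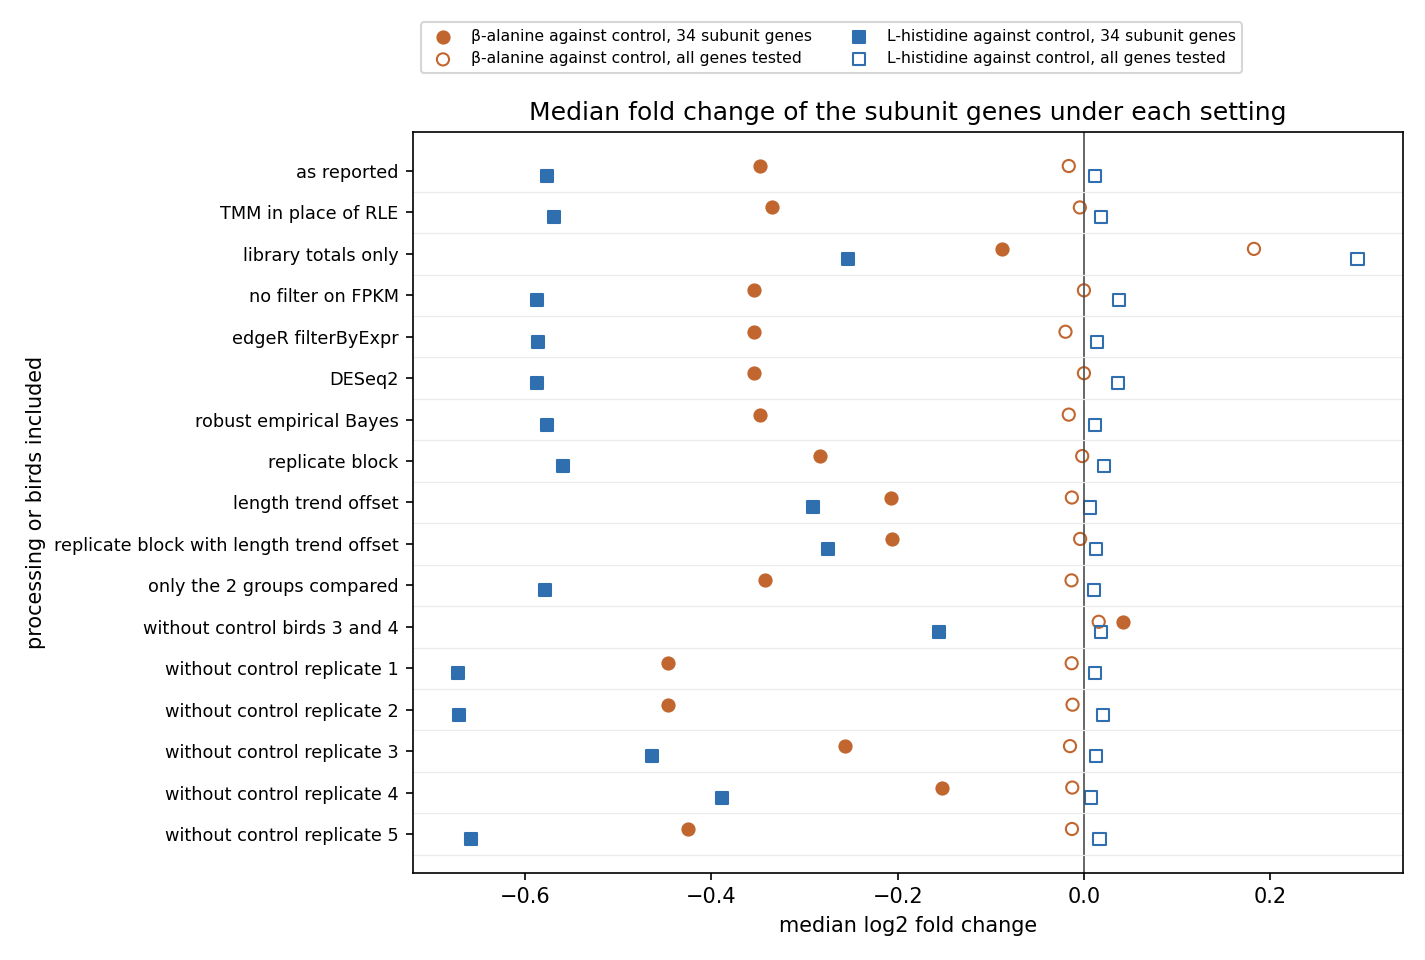
Median log2 fold change of the 34 subunit genes (filled) and of all genes tested (open) under each processing setting or choice of control birds, for β-alanine (circles) and L-histidine (squares) against control. Fits that leave out a supplemented bird are not drawn. As reported, the subunit medians are −0.35 and −0.58, and without control birds 3 and 4 they are 0.042 and −0.16.

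Most of the nuclear genes measured from lists of the other respiratory complexes were also lower on average. By symbol, the table held 4 of 4 genes listed for complex II, 8 of 9 for complex III, 8 of 12 for complex IV and 5 of 15 for complex V. The listed genes that were not found are not covered. With L-histidine, all 4 complex II genes, all 8 complex III genes, 7 of 8 complex IV genes and all 5 complex V genes measured were lower on average (medians −0.74, −0.42, −0.48 and −0.51). An unadjusted p under 0.05 was found in 3, 3, 3 and 5 of them, all lower, against 11.2% of all genes lower at that limit. With β-alanine, all 4, 6 of 8, 7 of 8 and all 5 were lower on average, with medians of −0.55, −0.40, −0.34 and −0.25. There were 2, 1, 0 and 1 such genes, against 6.17% of all genes. Without control birds 3 and 4, the medians were −0.16, −0.13, −0.10 and −0.17 with L-histidine and −0.06, −0.03, −0.02 and 0.03 with β-alanine. Then 1, 0, 0 and 1 such genes were left with L-histidine (2.71% of all genes) and 0 with β-alanine (3.13%). SDHD, the membrane anchor of succinate dehydrogenase (log2 fold change −0.90 ± 0.26), and UQCRFS1, the Rieske iron-sulfur protein of complex III (−0.88 ± 0.27), had the smallest p of complexes II and III with L-histidine. edgeR passed none of these 25 genes at the adjusted limit. DESeq2 called SDHD (adjusted p 0.0473) and UQCRFS1 (0.0498) with L-histidine, against 1.31% of the genes it tested that were called and lower. SDHD was at −0.62 and UQCRFS1 at −0.40 without control birds 3 and 4. Of 10 further assembly factors of complex I without an NDUF symbol, 8 were lower on average in each comparison, and ECSIT had the smallest p in both (−0.58 ± 0.25 with β-alanine and −0.91 ± 0.26 with L-histidine, adjusted p 0.445 and 0.170 with edgeR, and 0.0409 with DESeq2 for L-histidine). ECSIT was at −0.012 and −0.34 without control birds 3 and 4. Of the 10 factors, 4 were then lower and 6 higher on average with β-alanine (median 0.057). With L-histidine, 6 were lower and 4 higher (median −0.022).

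Of 10 regulators of mitochondrial genes measured, 8 were higher on average in each supplemented group, and none passed the adjusted limit in edgeR. Of all 11858 genes, 5728 were higher on average with β-alanine and 6044 with L-histidine. In each comparison 1 of the 10 was higher at an unadjusted p under 0.05, against 4.47% and 7.99% of all genes. PPARGC1A, the coactivator that drives mitochondrial biogenesis, had a log2 fold change of 1.65 ± 0.55 with β-alanine (unadjusted p 0.00804, adjusted p 0.424 with edgeR), and GABPB1, a subunit of nuclear respiratory factor 2, had 0.59 ± 0.16 with L-histidine (0.00169 and 0.170, and an adjusted p of 0.0402 with DESeq2). These were 1.69 and 0.47 without control birds 3 and 4, and 6 and 7 of the 10 were higher. With all birds, DESeq2 called 90 of the 11858 genes higher with L-histidine.

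Fast skeletal muscle was recognisable in every library: the summed level of the 6 fast fibre markers measured was 76665 to 101672 normalized FPKM in the β-alanine birds, 59855 to 109301 in the L-histidine birds and 91268 to 145069 in the control birds. These markers include TNNT3, the fast troponin T, and their correlation with the members from bird to bird was not tested. All 5 tested were lower on average with each supplement (medians −0.61 with L-histidine and −0.35 with β-alanine). With L-histidine, 4 of 5 had an unadjusted p under 0.05, where 11.2% of all genes were lower at that limit. It was 0 of 5 with β-alanine, where 6.17% of all genes were. Without control birds 3 and 4, 0 of 5 had such a p in either comparison. The medians were then −0.32 with L-histidine and −0.08 with β-alanine, with 5 and 4 of the 5 lower on average. The 7 slow or oxidative fibre markers other than TNNC1 summed to 6801 normalized FPKM in L-histidine bird 2, to 97.1 in control bird 3, and to 2.67 to 17.5 in the other 13 birds. TNNC1, the troponin C of slow and heart muscle, was summed apart because its level alone exceeds these sums in most birds. It had 6372 to 10474 normalized FPKM in the β-alanine birds, 5088 to 8781 in the L-histidine birds and 7317 to 19131 in the control birds. TNNC1 was highest in control bird 4, as most members were. It was lowest in L-histidine bird 2, where the other 7 slow markers summed highest, so it did not follow them there. Without L-histidine bird 2 the subunit median with L-histidine was −0.55, with 24 members lower at an unadjusted p under 0.05, against 8.53% of all genes. Summed fat cell markers were 37.8 to 73.0 in the β-alanine birds, 56.4 to 215 in the L-histidine birds and 56.0 to 362 in the control birds, and summed immune cell markers were 211 to 371, 110.4 to 564 and 104 to 336 in the same groups. The part of these markers in the members' values was not tested, and in whole muscle, fewer cells of a type cannot be told apart from less RNA per cell.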

How the data were processed

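Per the submitters' processing notes, the tools of the authors were cutadapt 1.9.1 for trimming, HISAT2 2.0.1 for alignment to GRCg6a and HTSeq 0.6.1 for counting. The deposited table holds a whole-number count per gene and bird, and the FPKM that the authors made from these counts with the exonic length and library total. The 11858 genes whose deposited FPKM averaged 0.2 or more were fitted in R 4.3.3 with edgeR 4.0.16 (relative log expression scaling, 15 birds, no covariates, 12 residual degrees of freedom, quasi-likelihood test, Benjamini-Hochberg adjustment). The intervals are 95% intervals. The DESeq2 1.42.0 fit took 15897 genes with any count. Without scaling, the median of all genes was 0.18 (β-alanine) and 0.29 (L-histidine), and fold changes are relative to the scaled libraries. The length trend was a lowess curve (span 0.5) of log2 CPM (prior count 1), entered as an offset.

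Members, roles and gene lists were chosen with earlier results of these data known. Values per bird were given for the 4 members with the smallest p in each contrast, the highest and the lowest member, and, in less detail, the core subunits, NDUFA4 and NDUFAB1. NDUFB8, NDUFA1 and NDUFAF1 were named after their values were seen. Of the other lists, the gene with the smallest p is named. Coordinates are those of the table, 1-based on GRCg6a. Chromosome names are those of the same symbols in a later build. Promoter motifs were planned and not searched, since no promoter sequence was used here. A result for 1 core subunit gene, which entered every fit, count and median, is not reported here.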

Additional observations from a re-analysis of the deposited data

Results flagged for a closer look

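For the 20 members named by rule, each group of 5 birds was examined for a bird whose gap to the next, as a share of the group's range, exceeded Dixon's 95% critical value. This was so in 9 of 60 groups (15.0%), against 8.04% of the groups over all 11858 genes. In independent groups chance gives about 1 in 20, but these members vary together from bird to bird and share the birds, so the groups are not independent. All values are normalized FPKM.

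L-histidine bird 3 stood above the other L-histidine birds in NDUFV3 (45.0), NDUFA2 (116) and NDUFA4 (292). L-histidine bird 5 did so in NDUFB3 (57.0). β-Alanine bird 2 stood above its group in NDUFAF4 (1.85), and control bird 4 above its group in NDUFA12 (245).

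NDUFAB1 stood out in bird 3 of every group, with 103 in the β-alanine bird, 115 in the L-histidine bird and 195 in the control bird. Of all 11858 genes, NDUFAB1 was the only 1 in which a bird of the same replicate number was high by this measure in all 3 groups. Each diet had its own cages, so these birds did not share one. The labels do not say that birds with the same number share a litter or a day, and the cause was not tested.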

How the results depend on the processing

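Scaling by TMM or library totals, no filter or edgeR's own filter, robust fitting, DESeq2, the replicate block, removal of the length trend, fits of 2 groups only and leaving out birds were each tried, and edgeR called 0 members in every comparison under all of them. DESeq2 called 3 with L-histidine (log2 fold changes −0.73 for NDUFC2, −0.65 for NDUFV3, −0.77 for NDUFA12). When each bird was left out in turn, the subunit medians ranged from −0.45 to −0.15 with β-alanine, −0.68 to −0.39 with L-histidine and −0.31 to −0.16 between the supplements, and the assembly factor medians from −0.31 to −0.036, −0.35 to −0.15 and −0.19 to 0.0045. With library totals only, the subunit medians were −0.088 with β-alanine and −0.25 with L-histidine, and the assembly factor medians 0.086 and 0.063. In these fits 1 and 7 members were lower at an unadjusted p under 0.05, against 1.54% and 2.31% of all genes, and 0 and 1 were higher. The share of all genes higher at that limit was not counted there, and the medians of all genes were 0.18 and 0.29. Without control birds 3 and 4, the subunit medians were 0.042 and −0.16, and the assembly factor median with β-alanine 0.060. Between the supplements, the assembly factor median was 0.070 with the length trend removed and 0.056 with the replicate block as well. The causes were not tested.

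Of the 42 members, the sign of the log2 fold change with β-alanine differed in 8 with library totals, 4 with the length trend removed and 23 without control birds 3 and 4, and with L-histidine in 5, 4 and 8. Of the 20 members named by rule, those that did so with β-alanine against control were the following. With library totals, NDUFA2 was 0.11 and NDUFB10 0.079. With the length trend removed, NDUFA2 was 0.093 and NDUFB10 0.051, and with the replicate block as well, 0.10 and 0.050, with NDUFAF4 −0.023. Without control birds 3 and 4, NDUFB6 was 0.056, NDUFA12 0.071, NDUFB7 0.23, NDUFA2 0.26, NDUFB10 0.14, NDUFV1 0.023, NDUFS3 0.051, NDUFS8 0.066, NDUFA4 0.38 and NDUFAB1 0.25. Leaving out 1 bird, NDUFB3 ranged from −0.39 to 0.59, NDUFAF4 from −0.11 to 0.22 and NDUFA2 from −0.26 to 0.026. Of the same 20, with L-histidine and without control birds 3 and 4, NDUFB3 was 0.0055, NDUFA4 0.063 and NDUFAB1 0.26.

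Deviations of same-numbered birds had correlations of −0.08 to 0.25 (β-alanine and control), −0.10 to 0.14 (L-histidine and control) and −0.24 to 0.05 (L-histidine and β-alanine). Differently numbered birds were not compared, so whether the replicate numbers pair the birds was not tested. With the replicate block, the subunit medians were −0.28, −0.56 and −0.22, with 8, 26 and 2 members lower at an unadjusted p under 0.05. The shares of all genes lower at that limit were 5.59%, 10.8% and 1.64%. Depth limits mainly NDUFAF4, which had 45 counts in its lowest bird. Control birds 3 and 4 are the birds highest in most members, so leaving them out is not independent of the members' values. Doing so for the other gene lists was chosen after seeing the data.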
